A study of Mus musculus with 24 samples.

Results

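Oligodendrocytes wrap axons of the central nervous system in myelin, and the 10 genes described here are 5 that set or mark their lineage (*Olig1*, *Olig2*, *Sox10*, *Nkx2-2* and *Pdgfra*) and 5 whose products build myelin (*Mbp*, *Mog*, *Mag*, *Cnp* and *Ugt8a*). They were chosen by name, and each was followed through the H3K4me3 regions that overlap the start of one of its transcripts (TSS) in the GENCODE M1 annotation of the mouse genome mm9. Of the 10 genes, 9 had such a region, out of 14904 genes with one among the 37310 annotated. The exception was *Sox10*, whose region ended 3 bp from its nearest TSS. Its values are given with the others, but it is left out of the counts of genes unless it is named in them. *Nkx2-2* and *Mbp* had a pair of such regions each, and the region with the higher total count was taken as the main one. For *Mbp* this choice depended on a single group of libraries, as is given with its values below.

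H3K4me3 was measured in the adult mouse cerebral cortex by chromatin immunoprecipitation and sequencing, and 12 libraries in 4 groups of 3 are used here. The groups cross 2 mouse lines with 2 assays. Single ChIP-Seq used anti-H3K4me3 antibody on all chromatin of a lysate, whereas tChIP-Seq took FLAG-tagged chromatin with anti-FLAG antibody first and then applied anti-H3K4me3 to what it recovered. Reads were counted in 17993 regions, and the totals ran from 6316125 to 8644574 in *Rosa* H2B-FLAG single ChIP-Seq, from 4063200 to 4233144 in *Camk2a* H2B-FLAG single ChIP-Seq, from 1457261 to 1828371 in *Rosa* H2B-FLAG tChIP-Seq and from 2709729 to 3049130 in *Camk2a* H2B-FLAG tChIP-Seq. Both lines were heterozygous C57BL/6 knock-ins of FLAG-tagged histone H2B at *Rosa26* under the CAG promoter. In *Rosa* H2B-FLAG mice the stop cassette had been removed in the germ line with Vasa-Cre, so that all cell types could carry the tag. *Camk2a* H2B-FLAG mice were double heterozygous males with CaMK-CreERT2, which acts in *Camk2a*-expressing excitatory neurons, and received 1 mg tamoxifen per day for 5 days at 8 weeks of age, a month before they were killed. The *Rosa* H2B-FLAG animals have no stated tamoxifen treatment, so line, Cre driver and treatment cannot be told apart. Their sex and their age in weeks are not stated either, so sex and age may differ between the lines as well. Each lysate was made from the tissue of 2 animals, and the p-values therefore measure the spread between lysates, not between single animals. Within a line, single ChIP-Seq and tChIP-Seq libraries carry the same numbers, and whether equal numbers share a lysate is not stated. The fits that hold both assays took them as separate samples, and a fit paired by number is given under the processing. Input and FLAG-only libraries were not used here.

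H3K4me3 is a histone mark that sits at the starts of genes that are active or poised. Oligodendrocytes arise from precursor cells that carry the PDGF receptor, and the factors Olig2, Sox10 and Nkx2-2 act as the precursors form, mature and switch on myelin genes. In the cortex, myelin and its cells lie among neurons, astrocytes, microglia and vessels, so a lysate of whole tissue mixes the chromatin of all of them.

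The first comparison was of the lines within tChIP-Seq, *Camk2a* H2B-FLAG against *Rosa* H2B-FLAG, and asked how much of the signal at oligodendrocyte genes was left when the tag was limited to cells in which the Cre had acted. Among the 9 genes with a region over a TSS, 6 were lower in *Camk2a* H2B-FLAG at an adjusted p under 0.01 (edgeR quasi-likelihood test, Benjamini-Hochberg adjustment over all regions), beside 14.6% of all 17993 regions. In the other direction, 1 of the 9 was higher, beside 17% of all regions. This was *Mbp*, whose main region was chosen by totals that include the *Camk2a* H2B-FLAG tChIP-Seq counts. Of the called regions 53.9% were higher, and 43.7% when libraries were scaled by their totals alone. By role, 3 of 4 lineage genes were lower and the median log2 fold change was -1.71, against a median of -0.00 over all regions. With *Sox10* included, 4 of 5 were lower. Among the myelin genes, 3 of 5 were lower and 1 was higher, with a median of -1.34. Fewer oligodendrocytes in the precipitated chromatin and less H3K4me3 per oligodendrocyte cannot be told apart from the bulk tChIP-Seq libraries alone. Neither was tested. In single ChIP-Seq, which took the chromatin of all cells, the log2 fold changes of the 5 lineage genes, *Sox10* included, ran from -0.33 to -0.08. Those of the 5 myelin genes ran from -0.45 to 0.07 at their main regions. The ranges in tChIP-Seq were -2.75 to -0.46 and -2.19 to 1.18.

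Values below are CPM, the count of a region per 1000000 counts of its library after TMM scaling, listed in the order of replicates 1 to 3, with the SD over 3 libraries after each mean. *Olig2*, the basic helix-loop-helix factor that specifies the lineage, had its region at chr16:91225104-91229833. In *Rosa* H2B-FLAG tChIP-Seq it stood at 77.2, 65 and 81.4 CPM, and in *Camk2a* H2B-FLAG tChIP-Seq at 14.1, 10.8 and 14.7 CPM. All 3 *Camk2a* H2B-FLAG libraries lay far below all 3 *Rosa* H2B-FLAG libraries, and the mean of 13.2 ± 2.1 CPM was 17.7% of the *Rosa* H2B-FLAG mean of 74.5 ± 8.5 CPM. This gave a log2 fold change of -2.48 ± 0.14 (SE, edgeR adjusted p = 1.83e-26). Single ChIP-Seq gave 75, 79.3 and 82.3 CPM in *Rosa* H2B-FLAG and 71.9, 59.9 and 68.5 CPM in *Camk2a* H2B-FLAG. These 6 values did not overlap between the lines but lay close together, and they were at the height of the *Rosa* H2B-FLAG tChIP-Seq libraries.

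*Olig1*, a related factor needed for myelination and repair, lies on the same chromosome, and its region at chr16:91269800-91272337 began 39966 bp after the end of the *Olig2* region. Its tChIP-Seq values were 46.4, 61.4 and 60.4 CPM in *Rosa* H2B-FLAG and 28.5, 28.9 and 28.7 CPM in *Camk2a* H2B-FLAG. The *Camk2a* H2B-FLAG libraries were nearly equal to each other and all below the lowest *Rosa* H2B-FLAG library, at 51.2% of the *Rosa* H2B-FLAG mean. This difference, a log2 fold change of -0.94 ± 0.13 (SE, edgeR adjusted p = 1.56e-09), was smaller than that of its neighbour *Olig2*. The difference between the 2 genes was not tested. In single ChIP-Seq *Olig1* stood at 64.6, 62.9 and 59.7 CPM in *Rosa* H2B-FLAG and 51.2, 48 and 50.1 CPM in *Camk2a* H2B-FLAG, and here too the lines did not overlap.

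*Sox10*, the factor that drives myelin genes in oligodendrocytes, was read from the region chr15:78990030-78994913 inside the gene. The 3 *Rosa* H2B-FLAG tChIP-Seq libraries had 36.5, 40 and 37.4 CPM and the 3 *Camk2a* H2B-FLAG libraries 11.5, 11.5 and 9.58 CPM. Each group was tight and the gap between them wide, with *Camk2a* H2B-FLAG at 28.6% of *Rosa* H2B-FLAG. The log2 fold change of -1.79 ± 0.17 (SE) had an edgeR adjusted p of 5.61e-15. Single ChIP-Seq gave 64.3, 73.3 and 71.3 CPM in *Rosa* H2B-FLAG and 54.2, 58.2 and 60.1 CPM in *Camk2a* H2B-FLAG, above every tChIP-Seq library of either line.

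*Nkx2-2*, a homeodomain factor that acts as precursors begin to differentiate, had its main region at chr2:147011003-147012662. Its tChIP-Seq values were 26.6, 22.7 and 24.9 CPM in *Rosa* H2B-FLAG and 4.59, 3.61 and 2.58 CPM in *Camk2a* H2B-FLAG. The *Camk2a* H2B-FLAG values rest on only 14, 10 and 7 reads, and all lay below the *Rosa* H2B-FLAG libraries. At -2.75 ± 0.25 (SE, edgeR adjusted p = 3.45e-16), this was the lowest log2 fold change of the 10 genes' main regions. Single ChIP-Seq values of 28.4, 24.9 and 23.6 CPM in *Rosa* H2B-FLAG and 27.6, 20.5 and 24.9 CPM in *Camk2a* H2B-FLAG overlapped.

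A further *Nkx2-2* region at chr2:147019333-147021016, 6670 bp away on the upstream side, holds the starts of the non-coding transcripts Nkx2-2-003 and Nkx2-2-004. There the tChIP-Seq values were 29.2, 23.3 and 26.9 CPM in *Rosa* H2B-FLAG and 9.84, 11.5 and 14.4 CPM in *Camk2a* H2B-FLAG. The lines again did not overlap, but *Camk2a* H2B-FLAG kept 45% of the *Rosa* H2B-FLAG mean, against 14.5% at the main region. The log2 fold change was -1.16 ± 0.19 (SE, edgeR adjusted p = 2.9e-07). Single ChIP-Seq gave 11.7, 11.2 and 13.1 CPM in *Rosa* H2B-FLAG and 13.5, 13.8 and 13.5 CPM in *Camk2a* H2B-FLAG, so that here the *Rosa* H2B-FLAG tChIP-Seq libraries were the highest of the 12. Another region, inside the gene at chr2:147008901-147010849, which holds the start of the antisense gene *Nkx2-2as*, went from a mean of 37.1 CPM in *Rosa* H2B-FLAG tChIP-Seq to 5.40 CPM in *Camk2a* H2B-FLAG tChIP-Seq. Its log2 fold change of -2.76 (edgeR adjusted p = 2.16e-20) was close to that of the main region.

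*Pdgfra*, the receptor through which PDGF keeps precursors dividing, had a region at chr5:75551780-75553271 that covers the start of 1 of its 2 transcripts. In tChIP-Seq it stood at 23.5, 24.5 and 26.2 CPM in *Rosa* H2B-FLAG and 21.7, 16.2 and 15.1 CPM in *Camk2a* H2B-FLAG. All *Camk2a* H2B-FLAG libraries were below the *Rosa* H2B-FLAG libraries, but replicate 1 came near to them. The log2 fold change of -0.46 ± 0.18 (SE) did not pass the threshold (edgeR adjusted p = 0.0302). Without *Camk2a* H2B-FLAG tChIP-Seq replicate 1 it was -0.65 and passed, with an adjusted p of 0.00608, and over all alternatives the adjusted p ran from 0.00608 to 0.118. Single ChIP-Seq values were 16.7, 16.6 and 18 CPM in *Rosa* H2B-FLAG and 10.1, 21.7 and 13.7 CPM in *Camk2a* H2B-FLAG, where the *Camk2a* H2B-FLAG libraries lay on both sides of the *Rosa* H2B-FLAG ones.

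**Figure D1:**
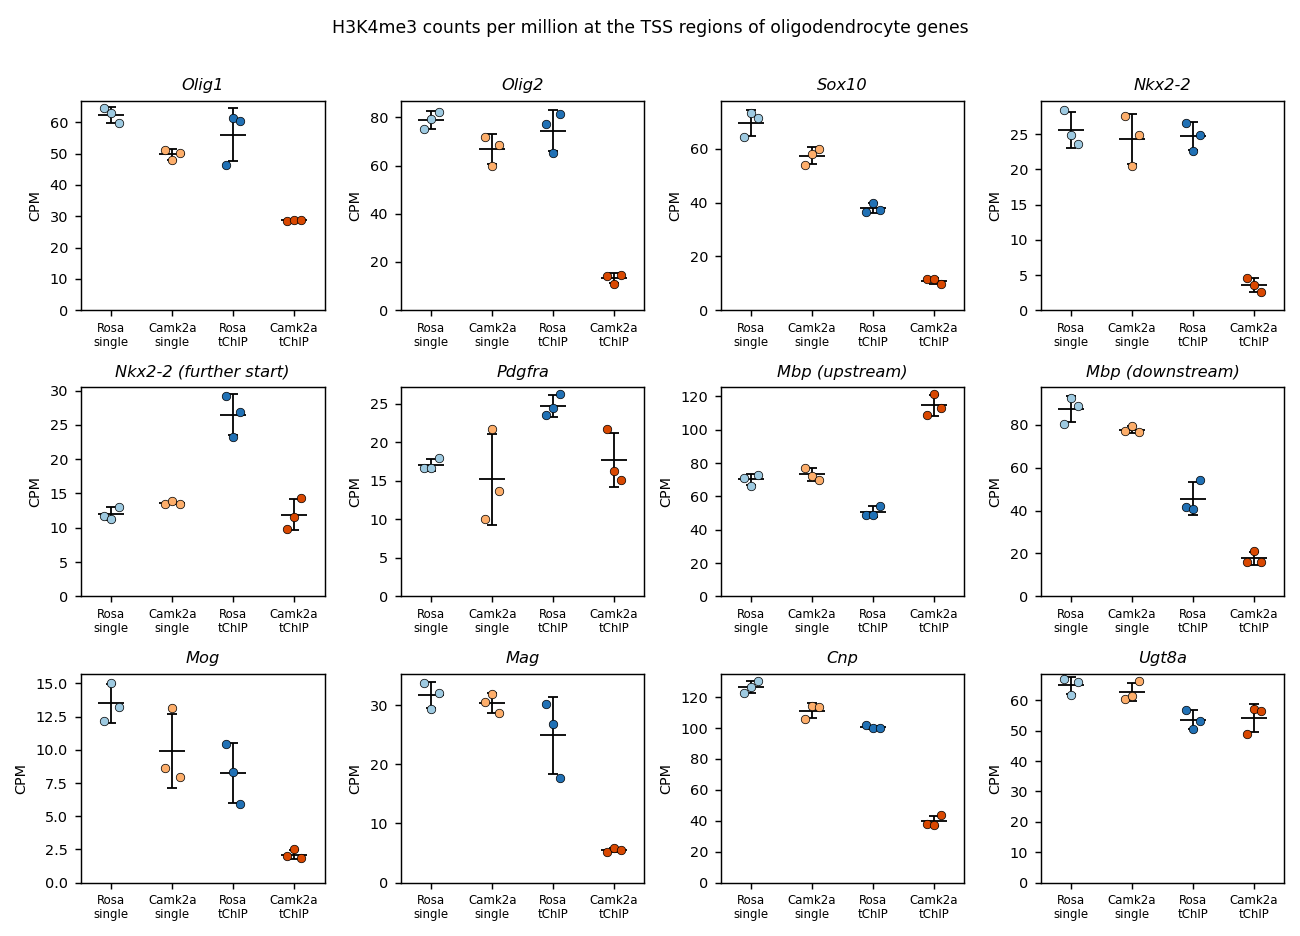
CPM (y axis) of each region of the 10 genes in each of the 12 libraries, with points for libraries by line and assay (x axis) and bars for the mean ± SD of 3. At *Olig2* the *Camk2a* H2B-FLAG tChIP-Seq libraries sit between 10.8 and 14.7 CPM and all other libraries above 59 CPM, whereas at the upstream *Mbp* region the *Camk2a* H2B-FLAG tChIP-Seq libraries are the highest.

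Among the myelin genes, *Mbp* encodes myelin basic protein, which packs the membrane layers of the sheath together. Its transcripts start at places far apart: a far upstream start gives the longer Golli forms, which neurons and immune cells also make, and starts further downstream give the classic myelin forms. The main region, chr18:82643953-82646548, covers the upstream starts of 4 transcripts, and the downstream region, chr18:82723949-82730263, lies 77400 bp further on, with the starts of 11 transcripts within 1000 bp of it, 1 of them inside it. At the upstream region the tChIP-Seq values were 49, 48.9 and 54.5 CPM in *Rosa* H2B-FLAG and 109, 122 and 113 CPM in *Camk2a* H2B-FLAG. Every *Camk2a* H2B-FLAG library was higher than every *Rosa* H2B-FLAG library, and this was the 1 gene of the 9 whose main region was higher. The log2 fold change was 1.18 ± 0.09 (SE, edgeR adjusted p = 7.66e-19), or 2.27-fold. This region was the main one only through the *Camk2a* H2B-FLAG tChIP-Seq libraries, with 332, 337 and 307 counts against 49, 59 and 43 downstream. Without them the downstream region had the higher total count, so that the 1 higher gene rests on this choice.

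The downstream *Mbp* region went the other way. Its tChIP-Seq values were 41.7, 40.6 and 54.5 CPM in *Rosa* H2B-FLAG and 16.1, 21.3 and 15.8 CPM in *Camk2a* H2B-FLAG. All 3 *Camk2a* H2B-FLAG libraries were lower, at 38.9% of the *Rosa* H2B-FLAG mean, with a log2 fold change of -1.34 ± 0.15 (SE, edgeR adjusted p = 4.8e-12). Had this region stood for the gene, a choice made after seeing the data, 7 of 9 genes would have been lower in *Camk2a* H2B-FLAG tChIP-Seq and 0 of 9 higher by edgeR. The count of higher genes would also have been 0 by DESeq2, beside 12.6% of all regions, and at an unadjusted p under 0.05, beside 24.2% of all regions. In single ChIP-Seq the upstream region had 71.1, 66.4 and 72.8 CPM in *Rosa* H2B-FLAG and 77.3, 72.3 and 69.8 CPM in *Camk2a* H2B-FLAG, which overlapped. The downstream region had 80.5, 92.6 and 88.8 CPM in *Rosa* H2B-FLAG and 77, 79.7 and 76.8 CPM in *Camk2a* H2B-FLAG by the same assay, with the *Camk2a* H2B-FLAG libraries just below the *Rosa* H2B-FLAG ones.

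The count of the upstream *Mbp* region divided by that of the downstream region needs no scaling between libraries, and was computed after the opposite directions had been seen. It was 0.883, 0.717 and 0.82 in *Rosa* H2B-FLAG single ChIP-Seq and 1, 0.907 and 0.909 in *Camk2a* H2B-FLAG single ChIP-Seq. In tChIP-Seq it was 1.18, 1.21 and 1 in *Rosa* H2B-FLAG and 6.78, 5.71 and 7.14 in *Camk2a* H2B-FLAG. The *Camk2a* H2B-FLAG tChIP-Seq libraries stood apart from the other 9, which all had ratios near 1. The mean ratio was 6.54 ± 0.742 (SD, n = 3) against 1.13 ± 0.111 in *Rosa* H2B-FLAG tChIP-Seq. A two-sided exact permutation test gave p = 0.1, the smallest that 3 against 3 libraries can give. The ratio was chosen for this difference, so no conclusion is drawn from the p-value. With 1 of the *Camk2a* H2B-FLAG tChIP-Seq libraries left out in turn, the mean lay between 6.24 and 6.96.

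**Figure D2:**
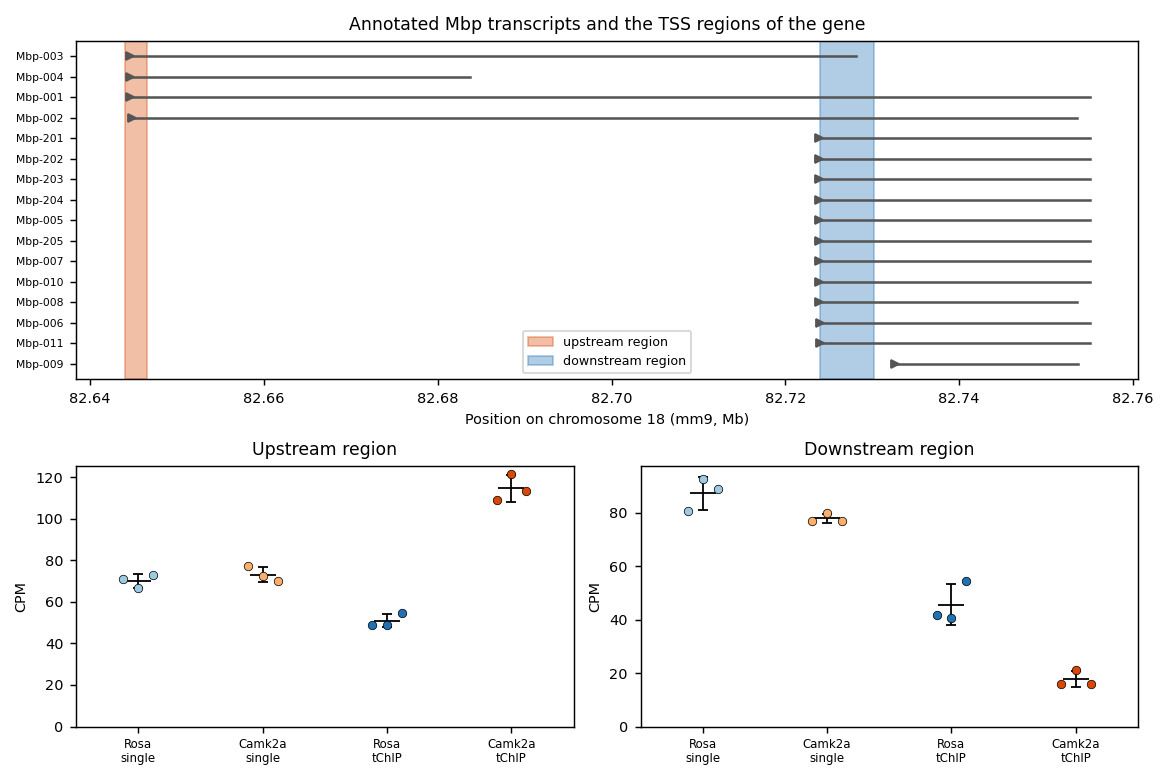
Map of the annotated *Mbp* transcripts on chromosome 18 of mm9 with the upstream and downstream regions marked (x axis in Mb), and CPM (y axis) of both regions in each library, with points for libraries and bars for the mean ± SD of 3. *Camk2a* H2B-FLAG tChIP-Seq averaged 115 CPM at the upstream region and 17.7 CPM at the downstream region, whereas the *Rosa* H2B-FLAG averages were 50.8 and 45.6 CPM.

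*Mog* encodes a glycoprotein of the outermost myelin layer. Its region, chr17:37159016-37160333, had tChIP-Seq values of 10.4, 8.35 and 5.9 CPM in *Rosa* H2B-FLAG and 1.97, 2.53 and 1.84 CPM in *Camk2a* H2B-FLAG. These rest on 20, 14 and 9 reads and 6, 7 and 5 reads, and the lowest *Rosa* H2B-FLAG library was above the highest *Camk2a* H2B-FLAG library. Its log2 fold change was -1.96 ± 0.38 (SE, edgeR adjusted p = 1.11e-05). Single ChIP-Seq values of 12.2, 15.1 and 13.3 CPM in *Rosa* H2B-FLAG and 8.62, 13.1 and 7.97 CPM in *Camk2a* H2B-FLAG overlapped.

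*Mag*, which encodes a glycoprotein of the myelin layer next to the axon, had its region at chr7:31697231-31700086. The tChIP-Seq values were 30.3, 26.8 and 17.7 CPM in *Rosa* H2B-FLAG and 5.25, 5.77 and 5.53 CPM in *Camk2a* H2B-FLAG. *Rosa* H2B-FLAG replicate 3 was lower than the other two, yet the *Camk2a* H2B-FLAG libraries lay close together far beneath it. The log2 fold change of -2.19 ± 0.23 (SE, edgeR adjusted p = 2.15e-13) was the lowest among the main regions of the myelin genes. In single ChIP-Seq *Mag* gave 33.7, 29.4 and 32.1 CPM in *Rosa* H2B-FLAG and 30.5, 32 and 28.7 CPM in *Camk2a* H2B-FLAG, and the lines overlapped.

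*Cnp* encodes an enzyme of non-compact myelin that appears early in the lineage, and its region chr11:100435835-100442673 was the widest of the 12. By tChIP-Seq it stood at 102, 100.2 and 99.7 CPM in *Rosa* H2B-FLAG and 38.1, 37.5 and 43.5 CPM in *Camk2a* H2B-FLAG. The lines were far apart, and *Camk2a* H2B-FLAG kept 39.5% of the *Rosa* H2B-FLAG mean, with a log2 fold change of -1.34 ± 0.10 (SE, edgeR adjusted p = 2.47e-20). Single ChIP-Seq gave 123, 127 and 130.4 CPM in *Rosa* H2B-FLAG and 106, 115 and 113 CPM in *Camk2a* H2B-FLAG, with all *Camk2a* H2B-FLAG libraries below all *Rosa* H2B-FLAG libraries.

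*Ugt8a* encodes the enzyme that makes the galactolipids of myelin, and its region chr3:125638818-125642078 was not called in this comparison. Its tChIP-Seq values were 56.9, 50.7 and 53.1 CPM in *Rosa* H2B-FLAG and 48.9, 57 and 56.4 CPM in *Camk2a* H2B-FLAG. The ranges of the lines overlapped, and the log2 fold change of 0.01 ± 0.11 (SE, edgeR adjusted p = 0.95), which was -0.06 with library totals alone, did not pass the threshold. In single ChIP-Seq the values were 67.1, 61.7 and 66.1 CPM in *Rosa* H2B-FLAG and 60.6, 61.3 and 66.3 CPM in *Camk2a* H2B-FLAG, which also overlapped.

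Levels of different genes are compared here as CPM per kb of region. In *Rosa* H2B-FLAG single ChIP-Seq the order from the lowest level was *Mog* at 10.2 ± 1.11 (SD), *Mag* at 11.1 ± 0.762, *Pdgfra* at 11.5 ± 0.524, *Sox10* at 14.3 ± 0.971, *Nkx2-2* at 15.4 ± 1.5, *Olig2* at 16.7 ± 0.772, *Cnp* at 18.5 ± 0.554, *Ugt8a* at 19.9 ± 0.87, *Olig1* at 24.6 ± 0.978 and upstream *Mbp* at 27 ± 1.28 CPM per kb. The ranges of mean ± SD overlapped between neighbours from *Mog* to *Pdgfra*, from *Sox10* to *Olig2* and, narrowly, between *Cnp* and *Ugt8a*, so these have no clear order. In *Camk2a* H2B-FLAG tChIP-Seq the order was *Mog* at 1.6 ± 0.276, *Mag* at 1.93 ± 0.0919, *Nkx2-2* at 2.16 ± 0.607, *Sox10* at 2.23 ± 0.229, *Olig2* at 2.8 ± 0.444, *Cnp* at 5.8 ± 0.48, *Olig1* at 11.3 ± 0.0646, *Pdgfra* at 11.8 ± 2.35, *Ugt8a* at 16.6 ± 1.39 and upstream *Mbp* at 44.1 ± 2.49 CPM per kb. Here the ranges overlapped between all neighbours from *Mog* to *Olig2* and between *Olig1* and *Pdgfra*, whereas *Cnp*, *Ugt8a* and upstream *Mbp* each stood apart from the gene before them. Among the 13404 regions that hold a TSS, ranked by CPM per kb in *Camk2a* H2B-FLAG tChIP-Seq, *Mog* lay at percentile 0.269, *Mag* at 0.56, *Nkx2-2* at 0.821, *Olig2* at 1.36 and downstream *Mbp* at 1.37. In *Rosa* H2B-FLAG tChIP-Seq the same regions were at percentiles 0.933, 3.03, 13, 15.1 and 1.54, so *Mog* and downstream *Mbp* were among the lowest TSS regions in both lines. Upstream *Mbp* went from percentile 24.5 in *Rosa* H2B-FLAG to 92.9 in *Camk2a* H2B-FLAG tChIP-Seq.

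A list of 15 other genes of the lineage and a list of 15 other myelin genes were read in the same way. Of the lineage list, 14 had a region over a TSS, and *Gpr17* had none. In tChIP-Seq 8 of these 14 were lower and 2 were higher in *Camk2a* H2B-FLAG, beside 14.6% and 17% of all regions, with a median log2 fold change of -0.77 and a range from -2.78 to 1.10. The share of higher calls in the list was thus not above that of all regions. *Tcf7l2*, a factor of newly formed oligodendrocytes, marked the low end, and its mean went from 121 ± 3.55 to 17.4 ± 4.42 CPM (log2 fold change -2.78 ± 0.12, edgeR adjusted p = 8.57e-34). *Cspg4*, which encodes the NG2 proteoglycan of precursors, went from 24.9 ± 2.12 to 6.21 ± 1.24 CPM, a log2 fold change of -1.98 ± 0.22 (edgeR adjusted p = 1.7e-12). This value was lower than that of *Pdgfra*, another gene of precursors, but the difference between the 2 genes was not tested. *Nkx6-2*, a homeodomain factor of the lineage, had 42.3 ± 7.58 CPM in *Rosa* H2B-FLAG and 12.4 ± 2.04 CPM in *Camk2a* H2B-FLAG (log2 fold change -1.75 ± 0.17, edgeR adjusted p = 5.87e-15). *Myrf*, the factor that switches on myelin genes and is named *Gm98* in the annotation, went from 32.1 ± 4.11 to 17.3 ± 0.973 CPM (log2 fold change -0.89 ± 0.16, edgeR adjusted p = 3.5e-06). *Myt1*, a zinc finger factor of precursors and of developing neurons, was higher in *Camk2a* H2B-FLAG, at 24.2 ± 4.31 against 11.3 ± 1.56 CPM (log2 fold change 1.10 ± 0.20, edgeR adjusted p = 4.38e-06). *Sox8*, a relative of *Sox10* whose region also holds the start of *2810468N07Rik*, had 173 ± 7.45 CPM in *Rosa* H2B-FLAG and 189.8 ± 8.08 CPM in *Camk2a* H2B-FLAG and was not called (log2 fold change 0.14 ± 0.06, edgeR adjusted p = 0.0571).

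Of the other myelin list, 11 genes had a region over a TSS, and 14 had one within 1000 bp. In tChIP-Seq 9 of the 11 were lower in *Camk2a* H2B-FLAG, and 11 of the 14, beside 14.6% of all regions. By DESeq2 the counts were 7 of 11 and 8 of 14, beside 10.6% of all regions. The 11 genes had a median log2 fold change of -1.16 and a range from -2.46 to 0.39. *Mal*, which encodes a proteolipid of compact myelin, went from 51.5 ± 1.32 to 14 ± 2.7 CPM (log2 fold change -1.88 ± 0.15, edgeR adjusted p = 2.19e-18). *Cldn11*, the tight junction protein of the sheath, went from 37.5 ± 4.94 to 18 ± 1.03 CPM (log2 fold change -1.04 ± 0.16, edgeR adjusted p = 3.09e-08). *Ermn*, a cytoskeletal protein of myelinating cells, went from 21.7 ± 1.35 to 7.44 ± 2 CPM (log2 fold change -1.52 ± 0.22, edgeR adjusted p = 1.3e-08). *Gal3st1* and *Fa2h*, both enzymes of the galactolipid pathway in which *Ugt8a* acts, were not called, with log2 fold changes of 0.39 ± 0.13 (edgeR adjusted p = 0.011) and -0.18 ± 0.13 (edgeR adjusted p = 0.261). Without *Camk2a* H2B-FLAG tChIP-Seq replicate 2 *Gal3st1* was at 0.43 and passed, with an adjusted p of 0.00989, and over all its alternatives the adjusted p ran from 0.00989 to 0.0735. *Opalin*, read 781 bp from its TSS, had a log2 fold change of -1.10 ± 0.41 (edgeR adjusted p = 0.026) and passed without *Rosa* H2B-FLAG tChIP-Seq replicate 3 (-1.35, adjusted p = 0.0093, range over its alternatives 0.0093 to 0.678). It rested on 19, 6 and 5 reads in *Rosa* H2B-FLAG and 10, 6 and 7 reads in *Camk2a* H2B-FLAG, and without *Rosa* H2B-FLAG tChIP-Seq replicate 1 it was at -0.34. *Mobp*, read 757 bp from its TSS, was at -1.75 ± 0.42 (edgeR adjusted p = 0.000415).

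**Figure D3:**
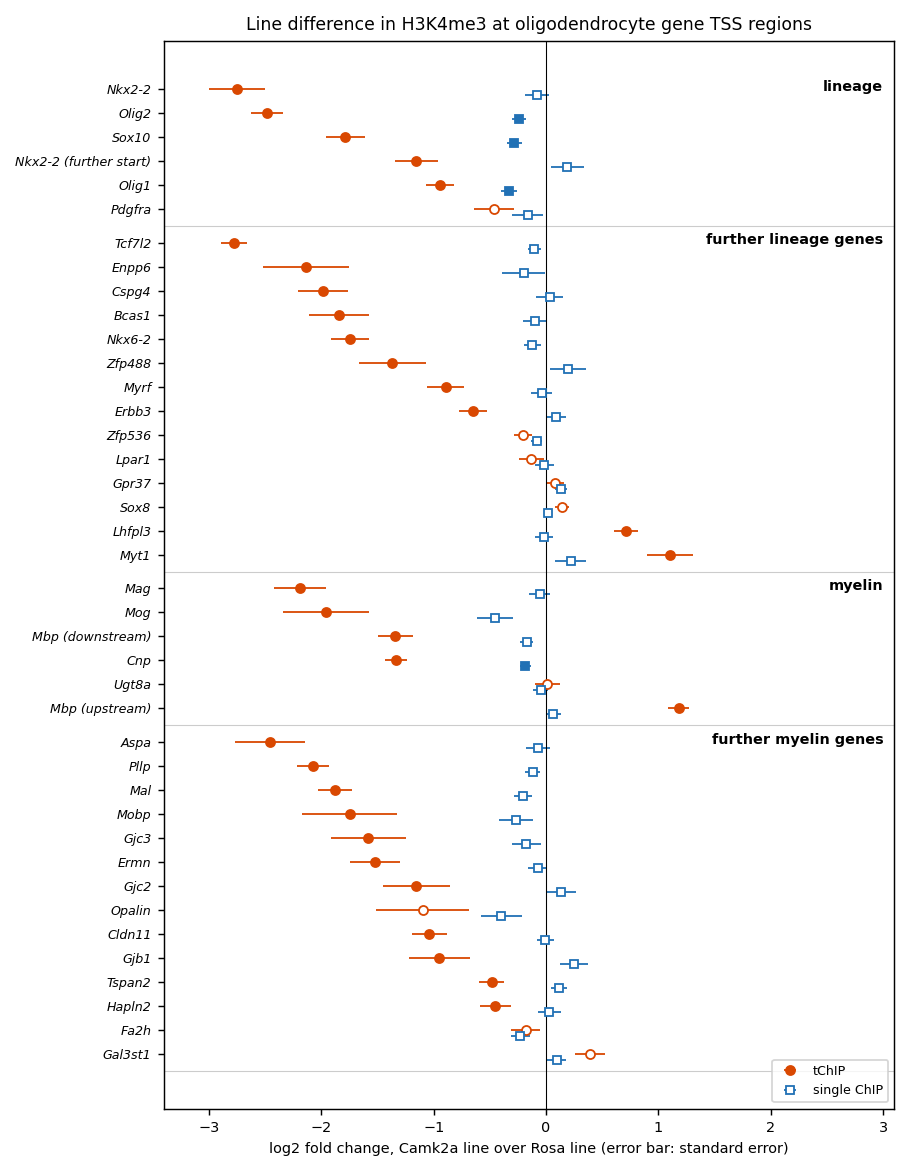
Log2 fold change of *Camk2a* H2B-FLAG over *Rosa* H2B-FLAG (x axis, bars are the SE) for the 10 genes and for the other lineage and myelin genes (y axis), with circles for tChIP-Seq and squares for single ChIP-Seq, filled where the adjusted p was under 0.01. The tChIP-Seq values run from -2.78 at *Tcf7l2* to 1.18 at upstream *Mbp*, whereas the single ChIP-Seq values of the 10 genes lie between -0.45 and 0.07 at their main regions.

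Markers of other cortical cell types moved in the same comparison, in which 14.6% of all regions were lower and 17% higher. Of 8 excitatory neuron genes, 7 had a region over a TSS (not *Tbr1*) and 7 were higher in *Camk2a* H2B-FLAG tChIP-Seq, with a median log2 fold change of 1.35. Their summed level was 471, 474 and 430.4 CPM in *Rosa* H2B-FLAG and 1172, 1238 and 1231 CPM in *Camk2a* H2B-FLAG. Astrocyte markers were lower in 5 of 7 and higher in 1, with sums of 486, 524 and 520.3 CPM in *Rosa* H2B-FLAG and 339, 342 and 322 CPM in *Camk2a* H2B-FLAG, and *Sox9* had the highest mean level per kb in *Rosa* H2B-FLAG. All 7 endothelial markers with a region over a TSS were lower, from 269, 266 and 277 to 75.5, 71.5 and 81 CPM summed, with *Kdr* the highest per kb by its mean. Inhibitory neuron markers were lower in 5 of 7, from 189, 194 and 172 to 104, 100.3 and 99.8 CPM summed, with *Pvalb* the highest per kb by its mean. Of 8 microglia markers none had a region over a TSS and 3 had one within 1000 bp, of which 2 were lower, with sums of 13.6, 14.9 and 17.7 and of 5.58, 3.61 and 3.68 CPM, and their levels rest on few reads, such as 3, 2 and 6 in *Rosa* H2B-FLAG for *C1qa*, the highest per kb by its mean of 5.23 ± 3.49 CPM per kb but with an SD that reaches the other 2. The defining microglia genes *Aif1*, *Cx3cr1*, *Itgam*, *P2ry12* and *Cd68* had no region. The 4 lineage genes with a region over a TSS summed to 174, 174 and 193 CPM in *Rosa* H2B-FLAG and 68.9, 59.5 and 61.1 CPM in *Camk2a* H2B-FLAG. This was lower, like the sums of the astrocyte, endothelial, inhibitory neuron and microglia lists and unlike that of the excitatory list. The 5 myelin genes, with *Mbp* read upstream, summed to 248, 235 and 231 CPM in *Rosa* H2B-FLAG and 203, 224 and 220.3 CPM in *Camk2a* H2B-FLAG. With *Mbp* read downstream instead, a choice made after seeing the data, the sums were 241, 227 and 231 CPM in *Rosa* H2B-FLAG and 110.2, 124 and 123 CPM in *Camk2a* H2B-FLAG. The part of the other cell types in these results was not tested.

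The second comparison set the same lines against each other in single ChIP-Seq, where all cells of the lysate contribute. Of the 9 genes 3 were lower in *Camk2a* H2B-FLAG, beside 1.22% of all regions, and the higher calls made up 0.928% of all regions. By edgeR 0 of the 9 were higher, also at an unadjusted p under 0.05, beside 10.6% of all regions, and by DESeq2, beside 0.15%. Of all called regions 43.3% were higher, and 77.3% with library totals alone. The lower genes were *Olig1* (-0.33 ± 0.07, edgeR adjusted p = 0.00118), *Olig2* (-0.24 ± 0.06, edgeR adjusted p = 0.00932) and *Cnp* (-0.19 ± 0.05, edgeR adjusted p = 0.00877), each a log2 fold change with its SE. *Sox10* was lower too, at -0.28 ± 0.07 (edgeR adjusted p = 0.00426). These were differences of 1.14-fold to 1.26-fold, and each call was lost under some alternatives. *Olig1* was not called without *Camk2a* H2B-FLAG single ChIP-Seq replicate 2 (-0.31, adjusted p = 0.0247, range over its alternatives 0.0011 to 0.0966). *Olig2* was not called without *Rosa* H2B-FLAG replicate 2 (adjusted p = 0.0343) or 3 (0.0524) or without *Camk2a* H2B-FLAG replicate 2 (0.181) or 3 (0.0161), over a range of 0.00669 to 0.25. *Cnp* was not called without *Rosa* H2B-FLAG replicate 2 (0.032) or 3 (0.0422) or without any 1 of the *Camk2a* H2B-FLAG replicates 1 (0.0889), 2 (0.024) and 3 (0.0182), over a range of 0.00696 to 0.245. *Sox10* was not called without *Rosa* H2B-FLAG replicate 2 (0.0506) or 3 (0.0219) or *Camk2a* H2B-FLAG replicate 1 (0.0514) or 2 (0.0249), over a range of 0.0013 to 0.194. By DESeq2's Wald test 0 of the 9 genes were lower in single ChIP-Seq, beside 0.0389% of all regions, whereas 4 were lower by edgeR at an unadjusted p under 0.05, beside 11.4% of all regions.

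The other genes were not called in single ChIP-Seq. *Nkx2-2* had a log2 fold change of -0.08 ± 0.11 (edgeR adjusted p = 0.713) and *Mag* of -0.06 ± 0.10 (edgeR adjusted p = 0.775). Upstream *Mbp* was at 0.07 ± 0.06 (edgeR adjusted p = 0.586) and downstream *Mbp* at -0.17 ± 0.06 (edgeR adjusted p = 0.0538). *Mog* was at -0.45 ± 0.16 (edgeR adjusted p = 0.059). *Pdgfra*, at -0.16 ± 0.14 (edgeR adjusted p = 0.516), turned to 0.06 without *Camk2a* H2B-FLAG replicate 1, and *Ugt8a* was at -0.05 ± 0.07 (edgeR adjusted p = 0.725). None of these 7 values passed the threshold. Of the 14 other lineage genes and the 11 other myelin genes 0 were called by edgeR, beside 1.22% of all regions lower and 0.928% higher. By DESeq2 0 were called too, beside 0.0389% and 0.15%. Shares this small leave room for few calls in lists of this size. At an unadjusted p under 0.05 the counts were 1 higher in the first list, beside 10.6% of all regions, and 2 lower in the second, beside 11.4%. The median log2 fold change was -0.20 over the 4 lineage genes and -0.06 over the 5 myelin genes, against 0.00 over all regions. Of the other cell types, 1 of 7 excitatory neuron genes was higher in *Camk2a* H2B-FLAG, beside 0.928% of all regions. This was *Camk2a* (log2 fold change 0.52 ± 0.04, edgeR adjusted p = 3.74e-27), which was named after its values were seen. The excitatory list summed to 901, 902 and 911 CPM in *Rosa* H2B-FLAG and 1012, 975 and 973 CPM in *Camk2a* H2B-FLAG. Most of this difference lay in *Camk2a*, whose mean went from 174 to 249.8 CPM while the mean sum went from 905 to 987 CPM. The median log2 fold change of the list was 0.01. Of 7 astrocyte, 7 endothelial and 7 inhibitory neuron genes 0 were called by edgeR in this comparison, beside 1.22% of all regions lower and 0.928% higher. The count was also 0 at an unadjusted p under 0.05, beside 11.4% and 10.6%, and by DESeq2, beside 0.0389% and 0.15%. The part of these lists in the result was not tested.

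The third comparison set tChIP-Seq against single ChIP-Seq within *Rosa* H2B-FLAG, and asked what the FLAG step changed when all cell types could carry the tag. It shares its tChIP-Seq libraries with the first comparison and its single ChIP-Seq libraries with the second. The authors reported that tChIP-Seq was biased at particular loci in this line. To offset this they mainly compared tChIP-Seq between the lines. The part of such a bias in the values below was not tested. Of the 9 genes 3 were lower in tChIP-Seq, beside 22.5% of all regions, and 1 was higher, beside 24.7%. Among the 13404 regions with a TSS, as the 9 genes have, lower calls outnumbered higher ones, 3827 to 2714. Of all called regions 52.3% were higher, and 67.7% with library totals alone. In the same comparison 2 of the 14 other lineage genes were lower and 3 higher, and 4 of the 11 other myelin genes were lower and 1 higher. Upstream *Mbp* was at -0.45 ± 0.10 (edgeR adjusted p = 1.13e-05) and *Cnp* at -0.32 ± 0.07 (edgeR adjusted p = 1.3e-05). *Mog* was at -0.68 ± 0.23 (edgeR adjusted p = 0.00553), a call that was lost without *Rosa* H2B-FLAG single ChIP-Seq replicate 2 (-0.58, adjusted p = 0.0323) or *Rosa* H2B-FLAG tChIP-Seq replicate 2 (-0.68, 0.0238) or 3 (-0.52, 0.0736), over a range of 0.00292 to 0.0736. It was also lost with library totals alone (-0.58, adjusted p = 0.0214) and by DESeq2's Wald test (adjusted p = 0.0331). The higher gene was *Pdgfra* at 0.54 ± 0.16 (edgeR adjusted p = 0.00149), which was not called without *Rosa* H2B-FLAG tChIP-Seq replicate 3 (0.50, adjusted p = 0.0147, range 0.000176 to 0.0147).

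The lineage factors divided within *Rosa* H2B-FLAG. *Olig2* had a log2 fold change of -0.07 ± 0.08 (edgeR adjusted p = 0.476), which was 0.03 with library totals alone. *Nkx2-2* was at -0.04 ± 0.15 (edgeR adjusted p = 0.848), which was 0.06 with library totals alone, and *Olig1* at -0.16 ± 0.10 (edgeR adjusted p = 0.139). These 3 did not pass the threshold. *Sox10*, in contrast, was lower in tChIP-Seq at -0.87 ± 0.10 (edgeR adjusted p = 2.25e-15), and so was downstream *Mbp* at -0.95 ± 0.09 (edgeR adjusted p = 5.28e-22). The further *Nkx2-2* region was higher, at 1.16 ± 0.16 (edgeR adjusted p = 1.63e-11). *Mag* was at -0.30 ± 0.14 (edgeR adjusted p = 0.049) and *Ugt8a* at -0.26 ± 0.10 (edgeR adjusted p = 0.0151), both short of the threshold. *Ugt8a* passed it without *Rosa* H2B-FLAG single ChIP-Seq replicate 2 (-0.30, adjusted p = 0.00749, range 0.00749 to 0.161). Other lists moved in this comparison as well. Their median log2 fold changes were -0.96 over 7 excitatory neuron, 0.31 over 7 inhibitory neuron, 0.43 over 7 astrocyte and 0.47 over 7 endothelial genes. The part of these lists in the result was not tested.

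The fourth comparison set tChIP-Seq against single ChIP-Seq within *Camk2a* H2B-FLAG, and shares its libraries with the first 2 in the same way. Of the 9 genes 6 were lower in tChIP-Seq, beside 22.6% of all regions, and 1 was higher, beside 25.3%. Among the 13404 regions with a TSS lower calls outnumbered higher ones, 3642 to 2906. The lower genes were *Olig1* at -0.79 ± 0.11, *Olig2* at -2.33 ± 0.12, *Nkx2-2* at -2.73 ± 0.22, *Mog* at -2.22 ± 0.31, *Mag* at -2.46 ± 0.19 and *Cnp* at -1.49 ± 0.08 (log2 fold change ± SE, edgeR adjusted p at most 2.17e-10). *Sox10* was lower at -2.40 ± 0.13 (edgeR adjusted p = 2.64e-41) and downstream *Mbp* at -2.14 ± 0.11 (edgeR adjusted p = 1.93e-45). Upstream *Mbp*, the main region only through its *Camk2a* H2B-FLAG tChIP-Seq counts, was the higher gene, at 0.65 ± 0.07 (edgeR adjusted p = 4.07e-16). *Ugt8a*, at -0.22 ± 0.09 (edgeR adjusted p = 0.0253), was not called. *Pdgfra* was at 0.22 ± 0.17 (edgeR adjusted p = 0.254) and was called higher without *Camk2a* H2B-FLAG single ChIP-Seq replicate 2 (0.58, adjusted p = 0.0085, range 0.0085 to 0.997). The further *Nkx2-2* region was at -0.20 ± 0.19 (edgeR adjusted p = 0.356) and was not called. Other lists moved in this comparison too: 7 of 7 endothelial genes were lower (median log2 fold change -1.97), 6 of 7 astrocyte genes were lower (median -1.41) and 6 of 7 excitatory neuron genes were higher (median 0.38). Inhibitory neuron genes were lower in 3 of 7 and higher in 1 (median -0.33). Their part in the result was not tested.

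The interaction of line and assay tests whether the difference between the lines was itself different in tChIP-Seq and single ChIP-Seq. Of the 9 genes 6 had a lower interaction, beside 13.2% of all regions, and 1 had a higher one, beside 13.7%. Of all called regions 50.9% were higher, and 38.9% with library totals alone. The lineage factors were at -0.62 ± 0.15 for *Olig1* (edgeR adjusted p = 0.000194), -2.25 ± 0.16 for *Olig2* (edgeR adjusted p = 1.22e-32) and -2.68 ± 0.28 for *Nkx2-2* (edgeR adjusted p = 1.57e-17). At these 3 factors the lines thus differed more by tChIP-Seq than by single ChIP-Seq. *Pdgfra* was at -0.31 ± 0.23 (edgeR adjusted p = 0.322) and was not called. The myelin genes were at -2.14 ± 0.25 for *Mag* (edgeR adjusted p = 1.94e-14), -1.16 ± 0.11 for *Cnp* (edgeR adjusted p = 7.09e-20) and -1.53 ± 0.42 for *Mog* (edgeR adjusted p = 0.00158). The *Mog* call was lost without *Camk2a* H2B-FLAG single ChIP-Seq replicate 2 (-1.27, adjusted p = 0.0152) or *Rosa* H2B-FLAG tChIP-Seq replicate 1 (-1.30, 0.0254), over a range of 0.000726 to 0.0254. Upstream *Mbp* was the 1 gene with a higher interaction, at 1.11 ± 0.12 (edgeR adjusted p = 1.71e-17). It was the main region only through its *Camk2a* H2B-FLAG tChIP-Seq counts, and downstream *Mbp* was at -1.18 ± 0.16 (edgeR adjusted p = 6.6e-11). *Ugt8a* was not called at 0.05 ± 0.13 (edgeR adjusted p = 0.808), which was -0.04 with library totals alone. The interaction was also lower at 7 of 7 endothelial genes (median -2.12), 5 of 7 astrocyte genes (median -1.68) and 5 of 7 inhibitory neuron genes (median -0.84). It was higher at 7 of 7 excitatory neuron genes (median 1.35). A lower interaction was thus not particular to the oligodendrocyte genes, and the part of these lists in the result was not tested.

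The regions differ in sequence as well as in level. The CpG content is given as the observed over the expected number of CpG dinucleotides, with a median of 0.605 over 13399 TSS regions. *Olig1* at 0.812 (percentile 91.7), *Ugt8a* at 0.782 (percentile 88.1) and *Olig2* at 0.714 (percentile 76.4) were on the CpG-rich side. *Mog* at 0.172 (percentile 0.552), *Mag* at 0.203 (percentile 1.02), *Cnp* at 0.308 (percentile 4.72), downstream *Mbp* at 0.319 (percentile 5.43) and the *Sox10* region at 0.336 (percentile 6.52) were on the CpG-poor side, each ranked against the TSS regions. *Nkx2-2* at 0.576, *Pdgfra* at 0.618 and upstream *Mbp* at 0.522 lay nearer the middle. Several regions were wide: *Cnp*, at 6839 bp, lay at percentile 99.6 of width among TSS regions, downstream *Mbp*, at 6315 bp, at 99.1, *Sox10*, at 4884 bp, at 96.4 and *Olig2*, at 4730 bp, at 95.8.

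The 150 bases before the TSS are shown for 2 lineage factors and 2 myelin genes, to set side by side the CpG-poor *Mag* and the CpG-rich *Ugt8a*, and the neighbours *Olig1* and *Olig2*, with log2 fold changes of -0.94 and -2.48. They are from mm9, written 5′ to 3′ on the strand of the gene, with each CpG dinucleotide in capitals. The windows are chr16:91269864-91270013 on the plus strand for *Olig1*, chr16:91225645-91225794 on the plus strand for *Olig2*, chr7:31699852-31700001 on the minus strand for *Mag* and chr3:125641469-125641618 on the minus strand for *Ugt8a*.
Olig1: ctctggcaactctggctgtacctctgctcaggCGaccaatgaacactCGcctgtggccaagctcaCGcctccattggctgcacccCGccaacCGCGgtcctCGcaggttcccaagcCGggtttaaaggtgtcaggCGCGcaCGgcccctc
Olig2: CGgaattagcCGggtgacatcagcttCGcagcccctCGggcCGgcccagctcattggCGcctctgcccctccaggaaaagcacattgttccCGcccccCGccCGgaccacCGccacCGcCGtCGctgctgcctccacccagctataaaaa
Mag: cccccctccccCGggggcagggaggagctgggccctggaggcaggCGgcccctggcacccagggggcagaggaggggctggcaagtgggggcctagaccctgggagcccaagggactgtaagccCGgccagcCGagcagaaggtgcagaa
Ugt8a: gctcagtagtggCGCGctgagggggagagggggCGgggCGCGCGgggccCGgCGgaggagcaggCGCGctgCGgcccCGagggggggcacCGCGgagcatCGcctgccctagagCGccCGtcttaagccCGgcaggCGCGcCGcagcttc
The windows hold 11 CpG in *Olig1*, 13 in *Olig2*, 4 in *Mag* and 21 in *Ugt8a*, where 13290 windows of this length had a median of 11 and quartiles of 7 and 16. Both strands of each window were searched for a SOX-type motif, ACAAAG (held by 5.77% of the 13290 windows), for the E-boxes CAGCTG (6.92%), CATATG (0.707%) and CAGATG (4.94%), and for the TATA motif TATAAA (2.75%). *Olig2* held 1 TATAAA, and *Olig1*, *Mag* and *Ugt8a* held none of the 5. Of the windows that are not shown, *Cnp* held 1 ACAAAG and *Mog* held 1 CAGCTG.

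The genes with the most similar levels over the 12 libraries were sought among 14218 genes (14219 for *Sox10*), with Pearson's r of log2 CPM as the measure. The libraries fall into 4 groups, so r follows the differences between groups and is a description. For *Olig2* they were *Pllp* (r = 0.996) and *Mal* (r = 0.993), both on the list of other myelin genes, and then *Gab1* (r = 0.989), which is on no list. For *Mag* the nearest was *Car2* (r = 0.986), for *Cnp* *Il33* (r = 0.995) and for *Mog* *Tnfaip6* (r = 0.979). For *Sox10* it was *Bcas1*, whose region also holds the start of *Gm14259* (r = 0.993), and downstream *Mbp* followed *Hadha* and *Hadhb*, which share a region (r = 0.986). Upstream *Mbp* had other neighbours: *Epha10* (r = 0.989), *Ly6h* (r = 0.989) and *Pgr* (r = 0.988). For *Olig1* the nearest was *Ptprm* (r = 0.970) and for *Nkx2-2* *Neat1* (r = 0.988). *Ugt8a*, with *Rpf1* (r = 0.954), and *Pdgfra*, with the region of *Zfp687* and *4930481B07Rik* (r = 0.923), had the least similar nearest genes of the 10.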

How the data were processed

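The authors aligned reads to mm9 with Bowtie 1.0.0 after removing repeat reads with Bowtie2 2.1.0, removed duplicates with SAMtools, took regions from MACS peaks and used bedtools 2.17.0 for the counts. The deposited values are read counts per region, and they were used unscaled. Here each comparison was fitted to all 17993 regions of its 2 groups alone, and the interaction of line and assay to all 12 libraries, with edgeR 4.0.16 in R 4.3.3 (TMM scaling, quasi-likelihood test). CPM were scaled by TMM over the 12 libraries. P-values were adjusted by Benjamini-Hochberg over all 17993 regions, and a region was called at an adjusted p under 0.01. DESeq2 1.42.0 served as the alternative.

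The named genes are the 10 genes with every region over a TSS, 15 genes taken from the lists of other lineage and myelin genes whatever their values, and up to 3 genes of highest Pearson's r for each region (log2 CPM with a prior count of 2, mean count of at least 30). The region with the highest total count was the main one of a gene. For *Mbp* it was the upstream region only through the *Camk2a* H2B-FLAG tChIP-Seq counts. The genes and lists were chosen with earlier results of these data known. The *Mbp* ratio and the *Mbp* counts by the downstream region were chosen after seeing the data.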

Additional observations from a re-analysis of the deposited data

Results flagged for a closer look

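At each of the following regions the difference between the lines in tChIP-Seq was itself different from that in single ChIP-Seq, by the interaction term of the edgeR fit over all 12 libraries, and the value is the log2 difference of the differences. *Olig1* stood at -0.62 (adjusted p = 0.000194). For *Olig2* it was -2.25 (adjusted p = 1.22e-32). The *Sox10* region near its TSS had -1.52 (adjusted p = 6.3e-13). The main *Nkx2-2* region had -2.68 (adjusted p = 1.57e-17). The further *Nkx2-2* region had -1.35 (adjusted p = 4.61e-07). The upstream *Mbp* region had 1.11 (adjusted p = 1.71e-17), the 1 positive value. The downstream *Mbp* region had -1.18 (adjusted p = 6.6e-11). *Mog* had -1.53 (adjusted p = 0.00158). *Mag* had -2.14 (adjusted p = 1.94e-14). *Cnp* had -1.16 (adjusted p = 7.09e-20). Single outlying libraries were not tested for, since each group has 3.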

How the results depend on the processing

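The tChIP-Seq calls of *Olig1*, *Olig2*, *Sox10*, *Nkx2-2*, upstream *Mbp*, *Mog*, *Mag* and *Cnp* between the lines kept their direction and their side of the threshold under every alternative run on these main regions. The count of genes lower in single ChIP-Seq did not: it was 3, but 1 with DESeq2's size factors, 1 with library totals alone, 0 with DESeq2's Wald test, 1 when all 12 libraries shared 1 fit, and between 0 and 3 with 1 library left out. With the downstream *Mbp* region in place of the upstream one, added after seeing the data, the genes called higher in the tChIP-Seq comparison, in the *Camk2a* H2B-FLAG comparison of assays and in the interaction each went from 1 to 0 by edgeR, and the genes called lower from 6 to 7. Lower genes in the *Rosa* H2B-FLAG comparison of assays went from 3 to 5 at an adjusted p under 0.05 and to 2 with library totals alone and with DESeq2's Wald test, and higher ones lay between 0 and 1 with 1 library left out. Higher genes in the *Camk2a* H2B-FLAG comparison of assays lay between 1 and 2 with 1 library left out. Genes with a TSS region went from 9 to 10 when regions within 1000 bp were taken.

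Directions turned only in values that were not called. With library totals alone these were *Ugt8a* between lines in tChIP-Seq (-0.0603), *Olig2* (0.0289) and *Nkx2-2* (0.0635) between assays in *Rosa* H2B-FLAG, and the *Ugt8a* interaction (-0.042). With 1 library left out, the log2 fold change in tChIP-Seq lay between -0.0337 and 0.0793 for *Ugt8a*. In single ChIP-Seq it lay between -0.179 and 0.0314 for *Nkx2-2* and between -0.521 and 0.0603 for *Pdgfra*. Between assays in *Rosa* H2B-FLAG it lay between -0.131 and 0.0128 for *Olig2* and between -0.102 and 0.0402 for *Nkx2-2*, and the *Pdgfra* interaction lay between -0.53 and 0.0506. The cause was not tested.

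Over all regions, lower calls in single ChIP-Seq went from 219 to 57 with library totals alone and 7 with DESeq2's Wald test, and to between 49 and 165 with 1 library left out, and higher calls from 167 to 27 with the Wald test and to between 69 and 131 with 1 library left out. At an adjusted p under 0.05 they were 669 and 522. Lower calls in the *Rosa* H2B-FLAG comparison of assays went from 4046 to 2522 with library totals alone, and in the *Camk2a* H2B-FLAG one from 4058 to 2414 with the Wald test.

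A replicate block treats equal replicate numbers as paired. With it the comparison of assays had 4424 higher and 4049 lower regions in *Rosa* H2B-FLAG and 4505 and 4011 in *Camk2a* H2B-FLAG. The interaction had 2472 higher and 2392 lower regions. Between the lines, where equal numbers stand for different animals, the tChIP-Seq comparison had 2948 higher and 2520 lower regions. Correlations between the residuals of libraries with equal replicate numbers were at most 0.0547, and with the block the counts of genes called were as without it in all comparisons. The count of lower regions in single ChIP-Seq went from 219 to 264 with it. Few reads limit the tChIP-Seq values of *Mog*, *Nkx2-2*, *Mobp* and *Opalin*, and regions are known only where peaks were called.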
